A study of Mus musculus with 19 samples.

Results

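The genes described here carry the insulin signal from the cell surface to glucose uptake. They are the receptor Insr, the adaptor Irs1, the phosphoinositide 3-kinase (PI3K) subunits Pik3r1 and Pik3ca, the kinases Akt1 and Akt2, the glucose transporter Slc2a4 (GLUT4), the Rab GTPase-activating protein Tbc1d1 and the phosphatase Ptpn1. They were chosen by name, and every probe that the array design gives to a gene of the set was taken. Of the 41174 probes on each array, 19 belonged to the set, and they covered 9 of its 10 genes. No probe carried the name of the adaptor Irs2, which is not analysed here.

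Expression was read on Agilent mouse arrays with a single dye, and each of the 19 samples had its own array. C2C12 is a mouse myoblast line. The control cells (C2C12 WT, 6 arrays) held empty plasmids, and the cells overexpressing HDAC4 and 5 (C2C12 HDAC4&5, 6 arrays) held plasmids with wild-type human HDAC4 and HDAC5, which are class IIa histone deacetylases. Both lines were stably transfected and kept in Hygromycin B and Geneticin at 500 µg/ml each, and they were harvested as growing myoblasts 48 h after seeding. Soleus is a slow-twitch postural muscle, and it was taken from male C57BL6J mice of 12 weeks after a fast of 5 h. The db/db mice (soleus db, genotype db +/+, 4 arrays) are obese because the leptin receptor does not function, and the controls were heterozygous littermates (soleus Con, genotype db -/+, 3 arrays), so the control animals also carry the db allele. The labels do not say whether arrays of a cell group are separate cultures, and the methods give fewer biological replicates per group than the cell groups and the db/db group have arrays. Every array counts as a sample here, so p-values measure the spread between these arrays, which may be technical.

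Insulin binding switches on the tyrosine kinase of its receptor, which phosphorylates IRS adaptors. These recruit PI3K through the SH2 domains of the regulatory subunit p85α (Pik3r1), the catalytic subunit p110α (Pik3ca) makes a phosphoinositide signal, and AKT kinases are activated by it. In skeletal muscle, AKT inhibits Rab GTPase-activating proteins such as TBC1D1 and the transporter GLUT4 moves to the surface, while the phosphatase PTP1B (Ptpn1) removes phosphate from the receptor.

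Probes of 60 bases report these transcripts, and the sequences shown are those that lie in coding sequence and tell related domains or genes apart. Coordinates are those of the scanner files, on mm9 (the headers of slide 4 name no build), and each sequence reads 5′ to 3′ along the transcript. The capitals in the Pik3ca probe mark the 3 codons of the DFG motif of the kinase domain, a run that 0.0486% of all probes hold on either strand. The capitals in both Pik3r1 probes mark the 4 codons of a stretch that the N-terminal and the C-terminal SH2 domain share, written with other codons in each, and each run is held by 0.00243% of all probes. The capitals in the Akt1 probe mark the start codon, letters that 88.0% of all probes hold. The Insr probe lies in the kinase domain at chr8:3159473-3159532, minus strand, and the Pik3ca probe at chr3:32360630-32360689, plus strand. The N-terminal SH2 probe of Pik3r1 spans chr13:102459406-102460448 and the C-terminal one lies at chr13:102456208-102456267, both on the minus strand. The Akt1 probe spans chr12:113900509-113909775 on the minus strand and the Akt2 probe spans chr7:28421973-28422113 on the plus strand. The N-terminal SH2, Akt1 and Akt2 probes cover more genome than their own 60 bases, so each is split over a gap.
Insr A_52_P6490: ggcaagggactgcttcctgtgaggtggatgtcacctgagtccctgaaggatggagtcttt
Pik3ca A_52_P265002: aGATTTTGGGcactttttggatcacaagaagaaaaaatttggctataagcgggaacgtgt
Pik3r1 A_52_P307938: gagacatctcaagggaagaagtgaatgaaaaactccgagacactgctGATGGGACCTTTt
Pik3r1 A_52_P407239: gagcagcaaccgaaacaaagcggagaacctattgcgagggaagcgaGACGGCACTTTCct
Akt1 A_52_P418014: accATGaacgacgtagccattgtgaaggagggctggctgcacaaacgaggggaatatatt
Akt2 A_51_P408044: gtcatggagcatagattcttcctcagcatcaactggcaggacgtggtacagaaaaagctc

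A level below is log2 of the scanner's processed intensity minus log2 of the 75th percentile of that array, so 0 means as bright as that percentile, and levels of different probes are not set against each other. A probe counted as well above background where the scanner software flagged more than 50% of its spots so. The 75th percentile was 536 to 1622 intensity units on control C2C12 arrays, 467 to 823 on HDAC4 and 5 arrays, 146 to 523 on control soleus arrays and 172 to 654 on db/db arrays. The C2C12 arrays lay on 3 slides with both groups on each, and soleus arrays on slides 4 and 5, also with both groups on each. The position of an array on its slide followed its group, so that these cannot be told apart. The columns of the deposited matrix for db/db replicates 1 and 2 are constant multiples of the scanner values of replicates 3 and 4, so the db/db replicate numbers differ between the deposited files, and those used here follow the sample labels.

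Markers of the labelled cells were read beside the set. The summed level of 8 myoblast markers (linear scale, relative to the 75th percentile) was 93.8 to 213 on control C2C12 arrays and 5.66 to 7.62 on HDAC4 and 5 arrays. Myod1, the myogenic master regulator, passed the background flag on 6 of 6 arrays of control cells but on 0 of 6 of the other cell group, while Myf5 and Pax7 passed it on 0 arrays of either. The 6 fibroblast markers summed to 40.1 to 48.3 in control cells and to 90.7 to 108 in cells overexpressing HDAC4 and 5. These markers did not move together. Of the 5 tested, 4 passed the adjusted p as higher and 1 as lower (37% and 31.4% of all probes). The lower one was Dcn, with a mean level of 1.79 in control cells and 0.49 with HDAC4 and 5. Lum passed the background flag on 0 arrays of either cell group. In soleus muscle the 10 slow fibre markers were all well above background on every array, and their summed level was 1256 to 2847 in control and 1026 to 2386 in db/db mice. Fibroblast markers summed to 386 to 452 in control and 108 to 361 in db/db muscle, and no marker of this list passed the adjusted p. A marker left out as an outlier on an array added nothing to its sum, so sums of different arrays can cover different genes. The db/db array with the lowest fibroblast sum lacked the bright marker Dcn, so the fibroblast sums of the groups cannot be set against each other. The 7 endothelial markers summed to 43.7 to 53.5 in control and 20.9 to 41.5 in db/db muscle, without overlap, although none passed the adjusted p. The sums of the 8 adipocyte markers overlapped, at 353 to 784 in control and 274 to 663 in db/db muscle. Single markers did not all overlap. Lep read -3.87 to -3.27 in control muscle, well above background on 1 of 3 arrays, and -0.65 to 0.92 in db/db muscle. Cfd went the other way, from 6.56 to 7.22 in control to 3.43 to 5.83 in db/db muscle. Of the 8 markers, 2 had no overlap, against 10.4% of all probes, and 0 passed the adjusted p. In a whole muscle, fewer cells of a type and less RNA per cell cannot be told apart, and the part of any of these markers in the results was not tested.

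The effect of HDAC4 and 5 on insulin signalling genes was read in C2C12 cells. Irs1 rose on both of its probes and Pik3r1 on 2 of its 4, while Insr, Pik3ca, Akt2, Tbc1d1 and, on 1 of its 2 probes, Akt1 fell. The largest fall among genes measured in both groups was 1.03 ± 0.07 (log2 difference ± SE, n = 6 and 6) for a probe of Tbc1d1, and the largest rise was 1.00 ± 0.12 for a probe of Irs1. Slc2a4 fell below the detection limit in cells overexpressing HDAC4 and 5, a fall that reversed in sign with another background correction. Of the 19 probes 18 passed the filter on dim probes, and 13 of these passed an adjusted p of 0.05 in limma, 4 higher and 9 lower (37% and 31.4% of all probes). In the deposited matrix the split was 1 higher and 9 lower of 18, where 52.4% of all probes passed. The count of 13 is 72.2% of the tested probes, against 68.3% of all 21477 tested probes, so the share lay near the background, and the groups did not overlap on 9 probes, 50% of those tested against 52.3% of all. The median difference was -0.15 over the set and 0.06 over all probes. On all 3 slides taken alone, each of the 13 called probes kept the sign of its difference. The probes were called on these same arrays, so this describes the calls and is no separate test of them.

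The receptor was read by 2 probes. Insr A_52_P494514 had a lowest, median and highest level of -2.21, -2.11 and -1.68 in control cells. The same probe had -2.63, -2.42 and -2.12 in cells overexpressing HDAC4 and 5, so the groups overlapped. It fell by 0.36 ± 0.11 on the log2 scale (adjusted p = 0.0113 in limma). With normexp background correction the difference was -0.03 and no longer passed (adjusted p = 0.901). The kinase domain probe of Insr, A_52_P6490, was well above background on 0 of 19 arrays and was not tested.

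Irs1, which couples the receptor to PI3K, was higher on every HDAC4 and 5 array than on any control array with both probes. A_52_P171212 read -3.20, -2.90 and -2.46 (lowest, median and highest) in control cells. With HDAC4 and 5 it read -2.04, -1.87 and -1.64. The difference was 1.00 ± 0.12 (adjusted p = 8.65e-06), a 2.00-fold rise, and it was 0.84 to 1.11 within the slides. A_52_P175242, the other probe, read 3.48, 3.58 and 3.77 in control cells and 3.84, 4.03 and 4.35 with HDAC4 and 5. Its difference was 0.46 ± 0.08 (adjusted p = 0.000194). In the deposited matrix this second probe differed by 0.27 and did not pass (adjusted p = 0.127), nor did it with normexp (0.36, adjusted p = 0.0503).

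Of the PI3K subunits, the regulatory one rose on 2 probes and the catalytic one fell. Pik3r1 A_52_P407239, in the C-terminal SH2 domain, read -2.43, -2.29 and -2.18 in control cells and -1.89, -1.85 and -1.59 with HDAC4 and 5. It rose by 0.50 ± 0.07 (adjusted p = 1.46e-05). Pik3r1 A_51_P511236 rose by 0.42 ± 0.08 (adjusted p = 0.000274), from levels of -2.61 to -2.37 to levels of -2.32 to -1.90. Neither group overlapped the other on these probes, and within the slides their differences were 0.33 to 0.55. The other probes of Pik3r1 differed by 0.12 ± 0.09 for A_52_P235476 (95% interval -0.08 to 0.32) and by 0.12 ± 0.14 for A_52_P307938 in the N-terminal SH2 domain (-0.18 to 0.43), and they did not pass. In the deposited matrix the rises of A_52_P407239 (0.32, adjusted p = 0.0906) and A_51_P511236 (0.23, adjusted p = 0.226) did not pass. Pik3ca A_52_P265002, over the DFG motif, fell by 0.58 ± 0.10 (adjusted p = 0.00015) from -1.52, -1.28 and -1.17 to -2.24, -1.87 and -1.64. The groups did not overlap on it. With normexp this fall was 0.27 and did not pass (adjusted p = 0.150). Pik3ca A_52_P577116 fell by 0.48 ± 0.11 (adjusted p = 0.00209), with levels of 1.06 to 1.48 in control cells and 0.49 to 1.12 with HDAC4 and 5.

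Akt2 fell on both of its probes and Akt1 on 1 of 2, all by less than the probes of Pik3ca. Akt1 A_51_P237553, spotted 10 times on each array, read 5.21, 5.33 and 5.40 in control cells and 4.89, 4.98 and 5.17 with HDAC4 and 5, without overlap. It fell by 0.30 ± 0.07 (adjusted p = 0.00114). The start codon probe of Akt1, A_52_P418014, differed by -0.08 ± 0.09 (95% interval -0.27 to 0.11) and did not pass. Akt2 A_51_P408044 fell by 0.34 ± 0.09 (adjusted p = 0.00411) from -0.05, 0.17 and 0.22 to -0.56, -0.21 and -0.02, so that the lowest control array lay within the range of the other group. Akt2 A_52_P2977 fell by 0.21 ± 0.07 (adjusted p = 0.0190), with overlapping groups, and did not pass when dim probes were kept in the test (adjusted p = 0.0561).

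Slc2a4 and Tbc1d1 lie at the glucose transport end of the pathway. Slc2a4, whose only probe was spotted 10 times on each array, was dim in control cells at -5.05, -4.68 and -4.59, yet well above background on 6 of 6 arrays. It was well above background on 0 of 6 HDAC4 and 5 arrays, where it read -7.16, -6.91 and -5.41. By a bound that sets each dim array at its faintest probe that still counted as detected, Slc2a4 was at least 1.47-fold lower with HDAC4 and 5. On HDAC4 and 5 replicate 4 that faintest probe stood at -4.49, above the highest control level. The adjusted p of 1.15e-05 in limma belongs to the values as read and does not test the bound. This bound depends on that setting and is not a measured size, and fold bounds given further below are set the same way. A probe can stay undetected above the faintest detected one. Akt1 A_52_P418014 did so on control soleus replicate 2, at -3.22 against -3.24. For Slc2a4, the HDAC4 and 5 readings are at background. Taken as read, they gave differences of -2.41, -1.18 and -2.36 within the slides and -0.88 in the deposited matrix. With normexp, the sign of the Slc2a4 difference reversed to 0.23 (adjusted p = 0.597), and HDAC4 and 5 replicate 4 lay well above the other 5 arrays of its group. Tbc1d1 A_52_P402331 read -1.41, -1.29 and -1.15 in control cells and -2.51, -2.30 and -2.16 with HDAC4 and 5. It fell by 1.03 ± 0.07 (adjusted p = 1.11e-08), and the groups were apart by more than their own ranges. Tbc1d1 A_51_P293516 fell by 0.34 ± 0.07 (adjusted p = 0.00114), with levels of 0.67 to 1.08 and 0.38 to 0.66.

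The brake Ptpn1 did not pass on either probe. A_51_P241705 read 4.62, 4.74 and 4.89 in control cells and 4.76, 4.87 and 4.97 with HDAC4 and 5, a difference of 0.11 ± 0.06 (adjusted p = 0.123). With the slide as a block the same difference passed (adjusted p = 0.0218), and it did so with the replicate number as a block (adjusted p = 0.0342), where 76.8% and 76% of all probes passed. Ptpn1 A_52_P516021 differed by -0.03 ± 0.08 (95% interval -0.21 to 0.15).

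**Figure D1:**
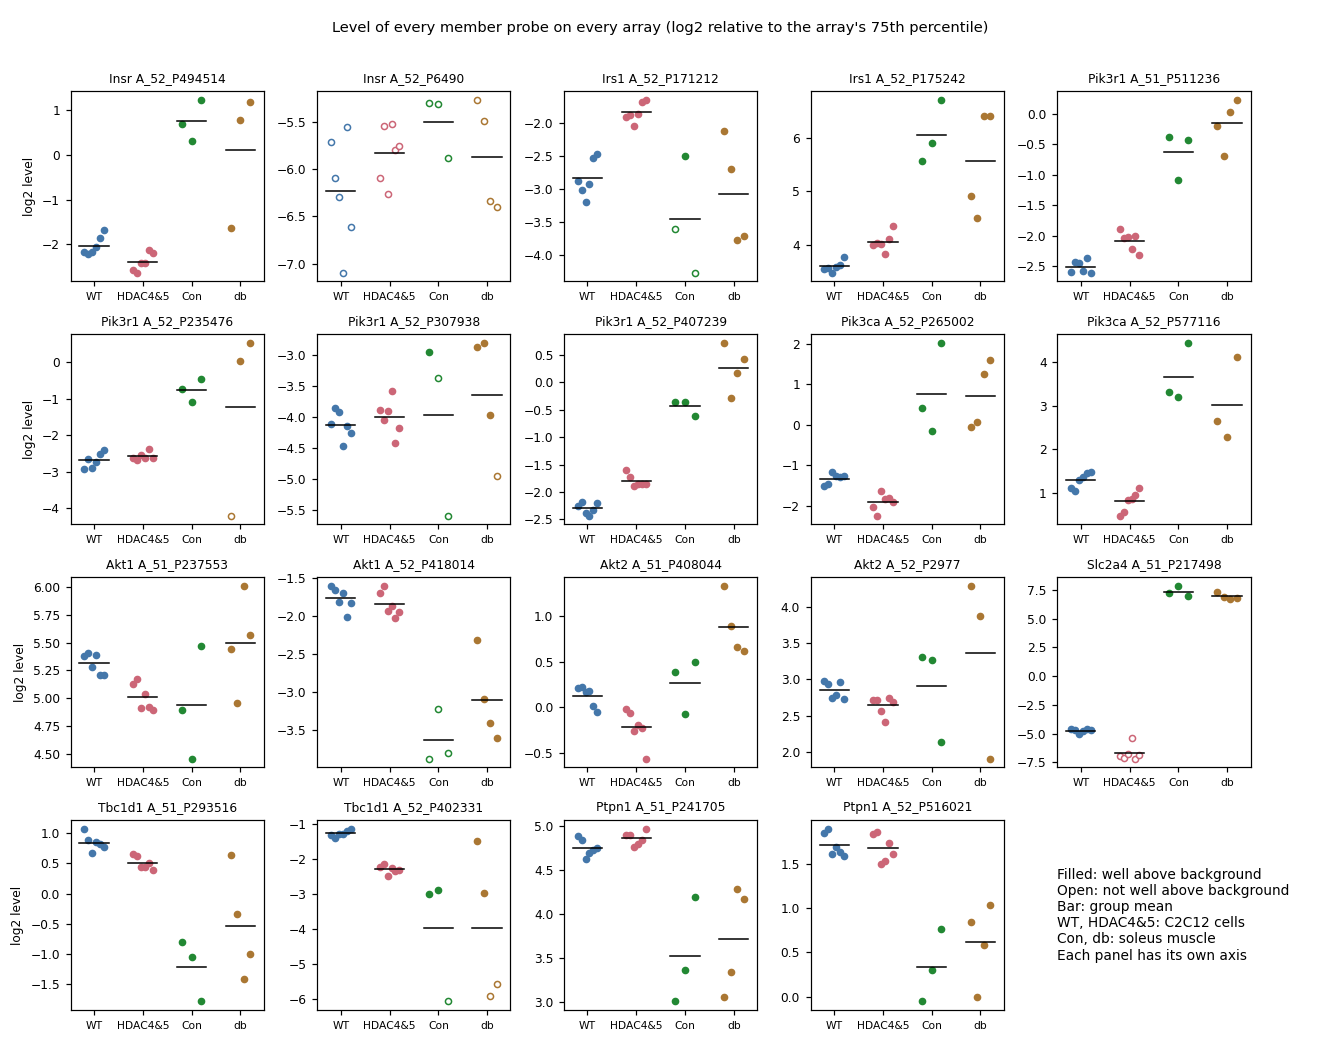
Level of each of the 19 probes on each of the 19 arrays, as log2 relative to the 75th percentile of the array, with a separate axis for each probe. Points are arrays, open where the probe was not well above background, and bars are group means. Slc2a4 is open on all 6 HDAC4 and 5 arrays, and its fall from control cells changes sign with normexp background correction.

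**Figure D2:**
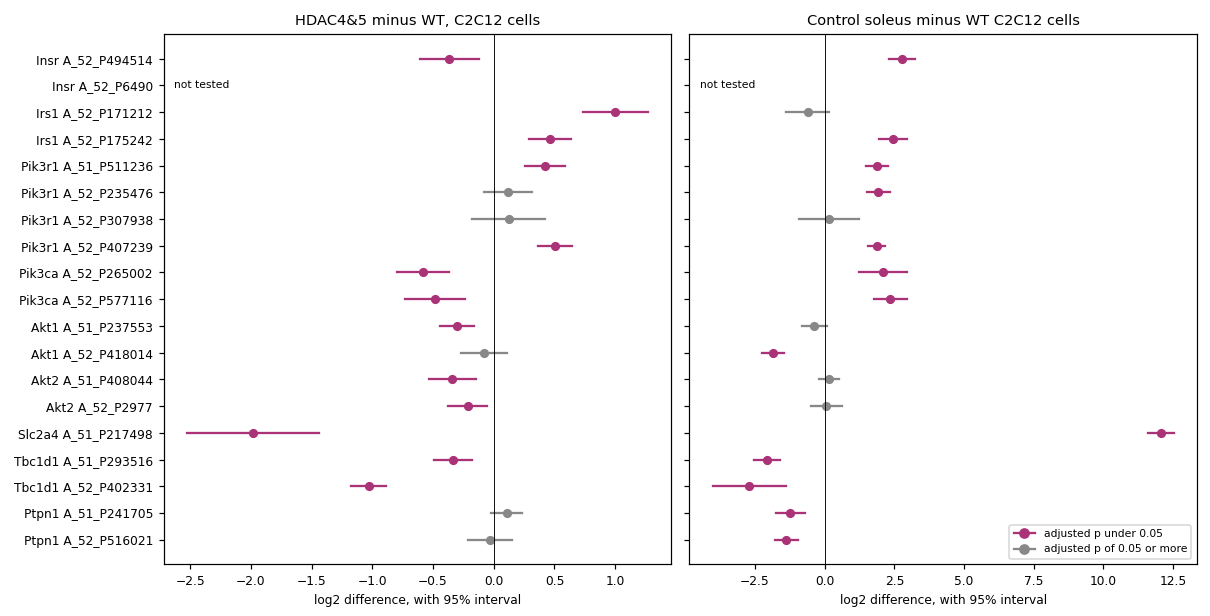
Log2 differences with 95% intervals for each probe, HDAC4 and 5 minus control C2C12 cells on the left (6 and 6 arrays) and control soleus minus control C2C12 cells on the right (3 and 6 arrays). On the left, probes of Irs1 lie above 0 and those of Insr, Pik3ca, Akt2, Slc2a4 and Tbc1d1 below, with Slc2a4 changing sign under normexp; on the right, Slc2a4 stands at 12.07, a lower limit since 1 of the 3 muscle arrays was saturated.

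The same genes were compared in soleus muscle of db/db and control mice. Of the set, 16 of the 19 probes passed the filter and none passed the adjusted p in limma, against 0.00539% of all 18538 tested probes, which is 1 probe. None passed an unadjusted p of 0.05 either, against 6.37% of all tested probes, and the methods' t-test at that unadjusted threshold gave 1, where 7.59% of all probes passed. The groups did not overlap on 2 of the 16 probes, 12.5% of them, against 10.4% of all probes. The adjusted p ran from 0.790 for Pik3r1 A_52_P407239 to 0.994 for Pik3ca A_52_P265002, and the widest interval ran from -3.21 to 2.30. With the slide as a block none passed either, against 0.146% of all probes. The same test called no probe of simulated soleus data in which changes had been placed, so the count of 0 does not show that the genes of the set were alike in both groups. The median difference was 0.33 over the set and 0.02 over all probes, and 14 of the 16 probes had the same sign on both slides as over all arrays.

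Insr A_52_P494514 read 0.69, 0.31 and 1.22 in control replicates 1 to 3 and -1.64, 0.78 and 1.17 in db/db replicates 1, 2 and 4. The value of db/db replicate 3 was left out as a scanner outlier, as it was for Pik3r1 A_52_P235476, Pik3ca A_52_P577116 and Akt2 A_52_P2977. The db/db mean was lower by 0.64 (95% interval of the difference -2.40 to 1.12), and replicate 1 alone lay below the control arrays. On slide 4 the difference was -0.93 and on slide 5 it was -0.05. Irs1 A_52_P175242 read 5.56, 5.90 and 6.71 in control and 4.92, 4.50, 6.41 and 6.40 in db/db muscle. The probe was saturated on db/db replicate 3, so 6.41 is a lower limit. With that level as read, its difference was -0.50 (-1.81 to 0.81), -1.02 on slide 4 and -0.30 on slide 5, and arrays of slide 5 were the brightest of each group. The other Irs1 probe, A_52_P171212, was well above background on 1 of 3 control and 4 of 4 db/db arrays, and its difference was 0.38 (-0.92 to 1.67), opposite in sign to the first.

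Pik3r1 A_52_P407239 read -0.35, -0.35 and -0.61 in control and 0.73, -0.28, 0.17 and 0.43 in db/db muscle. All 4 db/db arrays lay above all 3 control arrays, the lowest of them by little. The difference was 0.70 (-0.05 to 1.44, adjusted p = 0.790), 0.57 on slide 4 and 0.91 on slide 5. The methods' t-test gave this Pik3r1 probe an unadjusted p of 0.0453 and, after Benjamini-Hochberg adjustment over the array, none of the set passed. Pik3r1 A_51_P511236 differed by 0.47 (-0.32 to 1.27), with overlapping groups. Pik3r1 A_52_P235476 read -4.20 on db/db replicate 1, where it was not well above background, against 0.02 and 0.53 on replicates 2 and 4 and -1.09 to -0.46 in control muscle. Its difference was -0.46 (-3.21 to 2.30), -1.18 on slide 4 and 0.98 on slide 5. The N-terminal SH2 probe of Pik3r1, A_52_P307938, did not pass the filter in soleus. For Pik3ca the differences were -0.04 (-1.50 to 1.42) and -0.63 (-2.02 to 0.75), and both probes were brightest on slide 5 in each group.

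Akt2 A_51_P408044 read 0.38, -0.07 and 0.50 in control and 1.33, 0.89, 0.66 and 0.62 in db/db muscle, again with no overlap. Its difference was 0.61 (-0.12 to 1.33, adjusted p = 0.820), 0.96 on slide 4 but 0.14 on slide 5. Akt2 A_52_P2977 differed by 0.45 (-1.16 to 2.07) with opposite signs on the slides. Akt1 A_51_P237553 read 4.89, 4.46 and 5.47 in control and 5.45, 4.96, 6.01 and 5.57 in db/db muscle, a difference of 0.56 (-0.31 to 1.42). The start codon probe of Akt1 was well above background on 0 of 3 control and 4 of 4 db/db arrays. As read, its difference was 0.53 (-0.36 to 1.42, adjusted p = 0.895) and did not pass. Control replicate 2, at -3.22, lay above db/db replicates 3 and 4, at -3.41 and -3.61.

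Slc2a4 was among the bright signals of the muscle, at 7.18, 7.85 and 6.97 in control and 7.31, 6.89, 6.66 and 6.80 in db/db mice. The arrays of slide 5 (control replicate 3 and db/db replicates 3 and 4) were saturated for this probe, so their levels are lower limits. On slide 4, where no array was saturated, the difference was -0.42. On slide 5 the arrays of both groups were saturated, so the reading of -0.24 gives neither size nor direction. The difference over all arrays, -0.42 as read (-1.18 to 0.34, adjusted p = 0.896), includes those saturated arrays. Tbc1d1 A_51_P293516 read -0.79, -1.05 and -1.79 in control and 0.64, -0.35, -1.42 and -0.996 in db/db muscle. That is a difference of 0.68 (-0.52 to 1.88), 1.07 on slide 4 and 0.58 on slide 5, and the db/db arrays lay above the control arrays of their own slide. The other Tbc1d1 probe was well above background on 2 of 3 control and 2 of 4 db/db arrays and was not tested. Ptpn1 differed by 0.19 (-0.83 to 1.21) and 0.28 (-0.55 to 1.11) on its 2 probes.

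**Figure D3:**
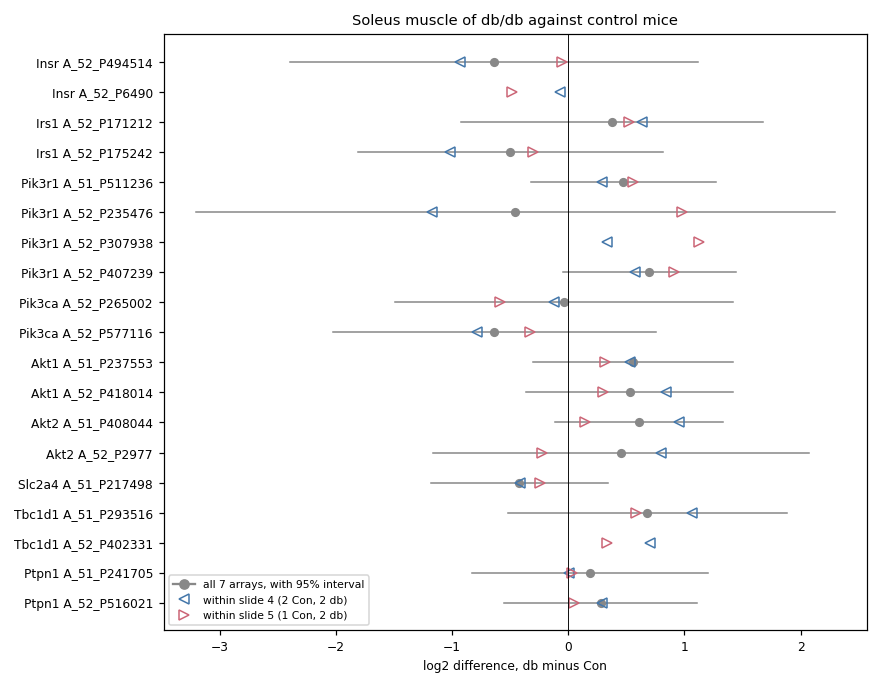
Log2 difference of each probe between db/db and control soleus muscle, over all 7 arrays with its 95% interval (grey; absent for the 3 probes that were not tested) and within slide 4 and slide 5 (triangles; slide 5 rests on 1 control array, and on 1 db/db array for the 4 probes with a missing value). Every interval crosses 0, and slide 4 and slide 5 lie on opposite sides of 0 for Akt2 A_52_P2977 and Pik3r1 A_52_P235476. The slide 5 triangle of Slc2a4 compares saturated arrays and gives no direction.

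Control soleus muscle was set against control C2C12 cells to order the levels between muscle and myoblasts. Slc2a4 was higher in muscle by 12.07 ± 0.20 on the log2 scale as read (n = 3 and 6, adjusted p = 6.06e-11), a lower limit since control soleus replicate 3 was saturated. Insr, Irs1 on 1 of 2 probes, Pik3ca on both and Pik3r1 on 3 of 4 were also higher in muscle, and Ptpn1 and Tbc1d1 were lower on both of their probes. Akt1 was lower on its start codon probe, and Akt2 did not pass. Of 18 tested probes, 13 passed (8 higher, 5 lower), which is 72.2% against 74.2% of all 22638 tested probes (34.4% higher, 39.8% lower), again near the background. With array weights set by group, 13 passed as well, against 58.3% of all probes. On simulated data with few changed probes, most calls of this test were on unchanged probes. The groups did not overlap on 13 probes, against 69.1% of all. Cells and muscle lay on slides of their own, so source and slide cannot be told apart, and this comparison shares its control cells with the comparison of HDAC4 and 5.

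Insr A_52_P494514 was 2.77 ± 0.21 higher in muscle (adjusted p = 8.19e-07), a 6.82-fold difference. Irs1 A_52_P175242 was 2.46 ± 0.22 higher, while its other probe, dim in muscle, differed by -0.62 ± 0.34 and did not pass. The probes of Pik3r1 that passed stood at 1.86 to 1.93 higher and those of Pik3ca at 2.09 ± 0.38 and 2.35 ± 0.26. For Pik3r1 A_52_P307938, dim in both sources, the difference of 0.15 ± 0.48 did not pass. Tbc1d1 was lower in muscle, at -2.06 ± 0.21 and -2.71 ± 0.59, as was Ptpn1, at -1.23 ± 0.23 and -1.38 ± 0.18. The Tbc1d1 difference of -2.71 is as read, since A_52_P402331 was not well above background on control soleus replicate 3. It read -6.08 there, against -3.01 and -2.88 on replicates 1 and 2. Akt1 A_52_P418014 was at least 3.14-fold lower in muscle, where it was well above background on 0 of 3 arrays, and did not pass with normexp (-0.26, adjusted p = 0.341). Akt1 A_51_P237553 differed by -0.37 (95% interval -0.82 to 0.08) and did not pass, but it passed in the deposited matrix (-1.01, adjusted p = 0.00264), with quantile normalization (-0.87, adjusted p = 0.00653) and with normexp (-0.64, adjusted p = 0.0339). Irs1 A_52_P171212 also passed with quantile normalization (-1.37, adjusted p = 0.00531) and Pik3r1 A_52_P307938 with normexp (1.05, adjusted p = 0.00809). The probes of Akt2 differed by 0.15 (-0.20 to 0.50) and 0.05 (-0.50 to 0.60). Without control soleus replicate 3, 16 probes passed, since Akt1 A_51_P237553 (-0.64), Akt2 A_52_P2977 (0.44) and Pik3r1 A_52_P307938 (0.96) joined them, and without replicate 2, 14 passed, with Irs1 A_52_P171212 at -1.10. Over the fits that left out a single array, 71.2% to 81% of all probes passed.

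Over the 4 groups, Slc2a4 fell in the order control soleus, db/db soleus, control C2C12 and HDAC4 and 5 C2C12, and the soleus groups overlapped while each other neighbour was apart. The HDAC4 and 5 group has only an upper limit on this probe, and the soleus groups are ordered as read, with saturated arrays in both. Insr A_52_P494514, both Pik3ca probes and both Akt2 probes had control C2C12 above HDAC4 and 5 C2C12 at the low end of the order, and of these only Pik3ca A_52_P265002 had cell groups that did not overlap. Pik3r1 ran the other way: by group means, on all 4 probes both soleus groups stood above HDAC4 and 5 cells, which stood above control cells. All neighbours in that order were apart on A_52_P407239, and on A_51_P511236 all but the soleus groups. On A_52_P235476 and A_52_P307938 every neighbour overlapped, so these probes show no clear order. Ptpn1 and Tbc1d1 were highest in cells on each of their probes. Irs1 had muscle above cells on A_52_P175242 and cells above muscle on its dim probe A_52_P171212. Akt1 A_51_P237553 ran from db/db muscle to control muscle over a difference of means of 0.56, with the cells between.

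The genes whose level followed Insr A_52_P494514 most closely over 18 arrays, among 18194 probes, were Tpm3, a slow-muscle tropomyosin (Pearson r = 0.984), Lnx1 (r = 0.983) and Aspa (r = 0.976). For Slc2a4 over all 19 arrays they were Igdcc4 (r = 0.998), Adck3 (r = 0.997) and Plin4, a lipid droplet protein of fat and muscle (r = 0.997). These points share the large step between cell and muscle arrays, which lie on different slides, and the values are a description of it.

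Whether the change in cells differed from that in db/db muscle was tested for each probe as the C2C12 difference minus the soleus difference. None of the 18 tested probes passed the adjusted p in limma, against 13.4% of all 23328 tested probes. In simulated data this test recovered a minority of large changes, so the count of 0 does not show that the changes were alike. Of the 18, 3 passed an unadjusted p of 0.05, against 24% of all. Those were Akt1 A_51_P237553 (-0.86 ± 0.36, adjusted p = 0.140), Akt2 A_51_P408044 (-0.95 ± 0.42, adjusted p = 0.169) and Tbc1d1 A_51_P293516 (-1.02 ± 0.46, adjusted p = 0.181), all with the lower value in cells. With the slide as a block 5 probes passed, against 29.3% of all, and the same 5 passed with the replicate number as a block, against 23.1%. They were those 3, Tbc1d1 A_52_P402331 (-1.59 with the slide as a block, adjusted p = 0.00318) and Irs1 A_52_P175242 (1.20, adjusted p = 0.00308). The Irs1 probe had the higher value in cells. Tbc1d1 A_52_P402331 read at background on the soleus arrays of slide 5. Levels there were -6.08 in control replicate 3 and -5.92 and -5.57 in db/db replicates 3 and 4. This Tbc1d1 probe did not pass the filter in soleus, so its value of -1.59 is as read. Without HDAC4 and 5 replicate 4, Slc2a4 alone of the set passed. Its probe was at background on every HDAC4 and 5 array and saturated on the soleus arrays of slide 5. Over all arrays its value was -1.56 and, with normexp, 0.57, and neither passed. Over the fits that left out a single array, 8.4% to 13.7% of all probes passed.

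The rest of the pathway was read from a list of 85 genes and 188 probes around the set. In C2C12 cells 109 of 141 tested probes passed, 40 higher and 69 lower, which is 77.3% against 68.3% of all probes, and in the deposited matrix the split was 22 higher and 67 lower. Receptors and adaptors were mostly lower, with 2 of 16 probes higher and 13 lower, as were proteins of GLUT4 traffic, with 7 of 34 higher and 23 lower. Over all probes 37% were higher and 31.4% lower. The list of PI3K subunits and PDK1 had 6 of 10 probes higher and 4 lower, brakes on insulin signalling 6 and 10 of 22, the mTOR arm 9 and 8 of 25, FOXO factors 2 and 1 of 3, glucose uptake and glycogen 2 and 1 of 12, and the Ras MAPK arm 6 and 9 of 19.

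Enpp1, an ectoenzyme that inhibits the receptor, was among the genes of this list that fell in C2C12 cells, at least 5.45-fold lower and well above background on 0 of 6 HDAC4 and 5 arrays. Deptor, an mTOR inhibitor, fell by 2.01 ± 0.07 and Foxo6, a forkhead factor, by 1.89 ± 0.05. Myo1c, a motor of GLUT4 vesicles, fell by 1.49 ± 0.05, Pik3cd, the p110δ subunit, by 1.30 ± 0.14 and Rab13, a Rab of vesicle traffic, by 1.18 ± 0.08. The C2C12 groups did not overlap on any of these genes.

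The largest rise was that of Trib3, a pseudokinase that binds AKT, at 1.92 ± 0.08 (adjusted p = 8.9e-11). Map2k1, the MAPK kinase MEK1, rose by 1.49 ± 0.07. Socs1, an inhibitor of cytokine and insulin receptors, rose by 1.44 ± 0.10 and Lnpep, the aminopeptidase IRAP that travels with GLUT4, by 1.28 ± 0.07. Foxo1, which AKT keeps out of the nucleus, rose by 1.23 ± 0.07, Phlpp1, a phosphatase of AKT, by 1.14 ± 0.10 and Eif4ebp1, a translation repressor under mTOR, by 0.92 ± 0.07. Chosen after its values were seen, Ptprf, a receptor phosphatase that acts on the insulin receptor, fell by 6.35 ± 0.15 and, on a probe dim in all HDAC4 and 5 arrays, at least 45.1-fold, while another of its probes fell by 0.44 ± 0.12. The level of Igf1r, the receptor most like Insr, fell on all 4 of its probes by 0.62 to 0.93.

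In soleus muscle none of the 133 tested probes of the list passed the adjusted p and 5 passed an unadjusted p of 0.05, 3.76% of them against 6.37% of all probes. The 5 genes with the smallest p on their brightest probe are given as values. Aspscr1, the tether TUG that holds GLUT4 vesicles, read -0.30, -0.18 and 1.02 in control and 1.15, 0.88, 1.69 and 1.44 in db/db muscle (difference 1.11 ± 0.41, adjusted p = 0.714). Eif4ebp1 read 4.46, 4.56 and 5.05 in control and 5.34, 5.36, 5.84 and 5.26 in db/db muscle (0.76 ± 0.30, adjusted p = 0.762), without overlap. Gys1, muscle glycogen synthase, differed by 0.79 ± 0.38 (adjusted p = 0.794), Mtor by 0.65 ± 0.33 (adjusted p = 0.816) and Akt1s1, an AKT substrate in the mTOR complex, by 0.60 ± 0.31 (adjusted p = 0.820), all with the higher mean in db/db muscle.

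Between control soleus and control cells, 106 of 152 tested probes of the list passed, 54 higher and 52 lower in muscle, which is 69.7% against 74.2% of all probes. Grb10, an adaptor that inhibits the receptor, was at least 877-fold and Pygm, muscle glycogen phosphorylase, at least 995-fold higher in muscle, both well above background on 0 of 6 control C2C12 arrays. The glycogen-targeting subunits Ppp1r3c and Ppp1r3a were each well above background on 1 of 6 control C2C12 arrays, so no size is given. Ppp1r3c read 4.46 and 4.48 on the control soleus arrays with a value and -4.09 on that C2C12 array, and Ppp1r3a read 2.45 to 4.82 in muscle and -5.29 on that C2C12 array. Pak1, a kinase of actin remodelling, was lower in muscle with a difference of -4.24 ± 0.24, Rab13 of -3.20 ± 0.58 and Socs1 of -2.77 ± 0.32. The Rab13 difference is as read, since its probe was well above background on 2 of 3 control soleus arrays. Its lowest, median and highest levels there were -5.22, -2.20 and -2.11.

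**Figure D4:**
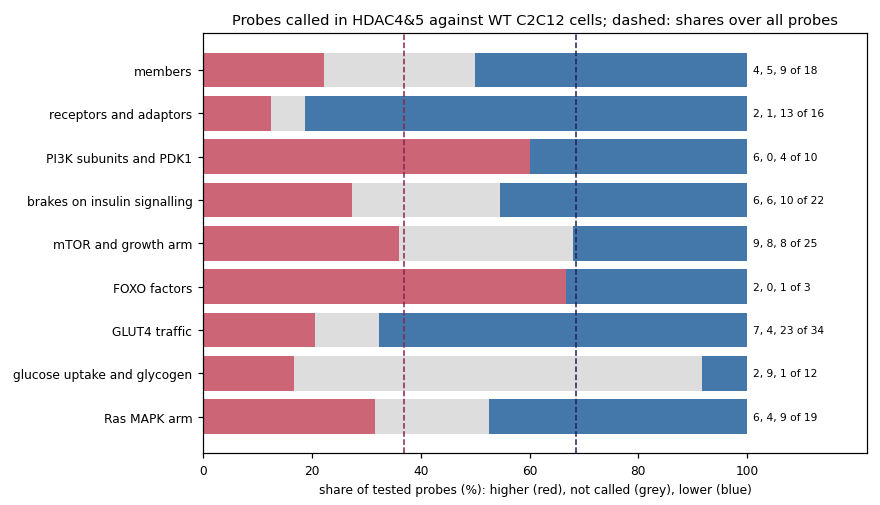
Share of tested probes that were higher (red), not called (grey) or lower (blue) in cells overexpressing HDAC4 and 5 than in control C2C12 cells, for the set and each part of the wider pathway list, with the counts in that order at the right. Dashed lines mark the shares over all probes; the bars of receptors and adaptors and of GLUT4 traffic reach furthest into blue, with 13 of 16 and 23 of 34 probes lower.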

How the data were processed

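The authors deposited scanner output of Agilent Feature Extraction (version 9.5.1.1, per the file headers and the submitters' processing notes) for each array, in which the processed intensity of a spot is background-subtracted and detrended within the array but not scaled between arrays. They also deposited a matrix of the ratio of processed intensity to a constant of each array. The protocol in the labels gives Cy3 and 100 ng RNA. Of the 19 columns of the matrix 15 matched a scanner file, so the matrix served as an alternative, by group. From the processed intensity, log2 minus log2 of the 75th percentile over 43379 spots of 41174 probes was computed here, spots called outliers were left out and spots of a probe were averaged, with no mean over different probes of a gene.

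A probe was tested if all arrays of 1 group or more in the comparison had it well above background, using limma 3.58.1 in R 4.3.3 (data.table, version 1.17.8) on the log2 scale, with Benjamini-Hochberg adjustment over all tested probes and a threshold of 0.05. Array weights were used in the test of the difference between cells and muscle. On simulated data the C2C12 test recovered most changed probes, the soleus test called none at any size of change tried, and the test of the difference between cells and muscle recovered a minority of large changes. With few probes changed, most calls of the simulated muscle against cells test were on unchanged probes, and fewer were with array weights by group. The number of arrays limits the precision, and no depth applies to arrays.

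Members and lists were chosen with earlier results of these data known. Of the wider list, the text names the 8 largest rises and falls in C2C12 and the 4 largest between muscle and cells, among probes past the threshold without overlap and 1 probe a gene, and the 5 smallest p in soleus; some genes that this rule picks are not reported here. Likeness was the Pearson correlation with the 3 closest genes. Replicate numbers paired the samples: deviations from group means correlated at 0.228 to 0.587 in C2C12 (6 same-numbered pairs) and 0.354 to 0.660 in soleus (3 pairs), and arrays of the same slide with other numbers at 0.221 to 0.544 and 0.262 to 0.730, so the number carries the slide. Alternatives were normexp background correction (offset 50), quantile normalization, the filter, outlier spots, 1 probe a gene, blocks, the methods' t-test and leaving out arrays. Array weights by group were chosen after seeing the data.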

Additional observations from a re-analysis of the deposited data

Results flagged for a closer look

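Of 53 probes by group examined for a single array far from the rest, 1 stood out, while chance picks about 1 in 20 groups. Slc2a4 in C2C12 cells overexpressing HDAC4 and 5 read -5.41 in replicate 4 against -6.76 in the next highest of the 6 arrays, a gap of 0.772 of the whole range. None of the 6 arrays was well above background on this probe. Its 10 spots on an array had a median SD of 0.603 in this group and 0.261 in control cells. Without replicate 4 the difference from control cells was -2.24 as read, with all 5 remaining arrays at background. The cause was not tested.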

How the results depend on the processing

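Direction reversed for 1 called probe: Slc2a4 in C2C12 was 0.23 with normexp. With 1 probe a gene, 8 of 9 genes of the set and 60 of 72 of the wider list passed in C2C12, where 69.1% of all probes passed. Between muscle and cells 7 of 9 passed, against 75.2% of all. These counts are smaller because fewer probes were tested. In soleus the methods' t-test without adjustment gave 1 of 16 for the set and 8 of 133 for the wider list (7.59% of all probes), and limma at an unadjusted p gave 5 for the latter (6.37%). For the difference between cells and muscle, 3 of 17 probes passed in the deposited matrix (14.6% of all probes), and of 18, 3 without array weights (27.4%), 3 at an unadjusted p (24%), 5 with the slide as a block (29.3%) and 5 with the replicate block (23.1%), against 0 (13.4%). The replicate block also added Ptpn1 A_51_P241705 in C2C12 (14 probes in place of 13) and changed no other call of the set. Leaving out 1 array gave 13 to 13 probes in C2C12 (66.3% to 68% of all probes) and 0 to 0 in soleus (0% to 0.0054%). It gave 13 to 16 between muscle and cells (71.2% to 81%). For the difference it gave 0 to 1 (8.4% to 13.7%), the 1 being Slc2a4 without HDAC4 and 5 replicate 4, a probe at background in that group. In C2C12 the set had 10 calls in the deposited matrix and 9 with normexp, where calls over all probes fell to 52.4% and 49.1%. Between muscle and cells it had 15 with quantile normalization (76.6% of all) and 14 with normexp (73.7%). The median of all probes shifted by -0.11 in that matrix and 0.17 with normexp in C2C12, and by -0.43 with quantile normalization between muscle and cells. Of values per probe, 462 in C2C12, 322 in soleus and 336 between muscle and cells kept their call or stayed uncalled, of which 6, 18 and 10 uncalled values changed sign, while 7 in C2C12 and 1 between muscle and cells lost the call, and 2 in C2C12, 9 between muscle and cells and 1 in soleus gained it. Within-slide values carry no test. Dim probes, saturated spots and 3 control mice limit what these arrays can show, and the causes of these changes were not tested.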
